A study of Homo sapiens with 9 samples.

Results

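Antisense long noncoding RNAs (lncRNAs) are transcribed from the strand opposite a named gene, their sense gene, and are usually spliced and polyadenylated but carry no long open reading frame. Many start from the same promoter region as the sense gene and run away from it or across it, and others lie under its exons or its end. Single members are known to act on the sense gene's transcription, splicing or translation, while for most no function has been described.

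A375R cells are a human melanoma line with resistance to PLX4032, an analog of the BRAF inhibitor vemurafenib, and are grown in medium that contains it. The control libraries came from cells given DMSO, the solvent, and their titles name them as wild type with no dose or time. The headers of their count columns give 2 h for replicates 2 and 3 and no time for replicate 1. VHL-r, the part that binds the VHL ubiquitin ligase, and R4VPL3-1, the whole PROTAC-like molecule that joins this part to a ligand of the ubiquitin ligase RNF4, were each given at 10 µM for 2 h. Every treatment had 3 replicates of this 1 line, which the submitters describe as biological, and poly(A) RNA was sequenced with strand kept, so that both strands of a locus are counted apart.

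The lncRNA rows of the count table hold 1781 genes whose name ends in -AS and a number. Of these, 470 had a mean of at least 10 normalized read counts over the 9 libraries and are described here, after EPB41L4A-AS1, a small nucleolar RNA host, was left out. The other 1310 lay below that mean. The last member above it was CYP1B1-AS1 at 10.03, and the first row below it was REPIN1-AS1 at 9.984. A sense gene, taken as the name before -AS, had a row for 464 members, of which 396 members had a sense gene that also reached 10, 68 had one below it, and 6, in the HOX clusters and at ZNF295, had no row under that name. The 396 pairs hold 391 sense genes, since some have more than 1 antisense RNA. All 470 members matched the GENCODE 44 gene models, and positions are given on GRCh38 as the files list them.

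The libraries held 26435568 to 32085626 reads assigned to genes. The cells carried the melanoma marker SOX10 at a mean of 12050 normalized counts and the dedifferentiation marker AXL at 10160, and 8 of 11 genes on the melanocyte and melanoma list had a mean of 10 or more. Among its pigment genes DCT was at 1277 and PMEL at 30.5, while TYRP1 was at 6.38, TYR at 0.354 and MLANA at 0. Of the other lists, 4 of 4 fibroblast genes reached 10, COL3A1 highest at 787, as did 2 of 4 keratinocyte genes, KRT14 higher at 295, and 1 of 3 endothelial genes, and the leukocyte marker PTPRC had a mean of 4.62. The summed melanoma list was 35650 to 38420 in DMSO, 26550 to 30870 with VHL-r and 25830 to 28490 with R4VPL3-1, and its part in the results was not tested. In bulk RNA, fewer cells that express a gene and less of its RNA per cell cannot be told apart.

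Most antisense lncRNAs were rare. Their median mean was 41.8 normalized counts, with quartiles of 19.3 and 95.8, against 578 over all 15230 genes tested, and together they held 0.177% to 0.201% of the reads of a library. FGD5-AS1 was the most abundant, with 5021, 5026 and 4856 in DMSO, 4947, 4743 and 4740.1 with VHL-r and 4727, 4703 and 4709 with R4VPL3-1. Its level was nearly flat, at a log2 fold change of -0.05 ± 0.04 (SE) with VHL-r and -0.08 ± 0.04 (SE) with R4VPL3-1 (adjusted p = 0.498 and 0.2), and its sense gene FGD5, an endothelial exchange factor for CDC42, had only 3.77 counts. ENTPD1-AS1 (1988), MAGI2-AS3 (1399) and FLG-AS1 (1387) were the other members with a mean of 1000 or more. They were followed by CCDC144NL-AS1 at 910.5, NUTM2A-AS1 at 788, WARS2-AS1 at 769, PRR7-AS1 at 758, THUMPD3-AS1 at 750.1 and SVIL-AS1 at 749.7.

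Per kilobase of exon, the highest levels were those of FGD5-AS1 (799 counts per kb), PRRT3-AS1 (410.0), MAGEA4-AS1 (384), PTOV1-AS2 (358) and BCAN-AS2 (339). Over the 396 pairs, the antisense level per kb was a median of 9.47% of the sense level, with quartiles of 3.13% and 32.7%. The antisense RNA was above its sense gene in 47 pairs and under 1% of it in 50. MAGI2-AS3 stood at 1901% of MAGI2, a synaptic scaffold gene, whereas VIM-AS1 stood at 0.502% of VIM, the mesenchymal intermediate filament vimentin.

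Both compounds moved a part of the antisense lncRNAs in both directions. With VHL-r, 39 members rose and 35 fell against DMSO (limma, Benjamini-Hochberg adjusted p of at most 0.05), 15.7% of 470 in all, while 19.8% of all tested genes were called, 10.3% higher and 9.51% lower. With R4VPL3-1, 59 rose and 37 fell, 20.4% of the members against 24.9% of all genes, of which 13.1% were higher and 11.8% lower. The members' shares were thus not above the background in either comparison. Of the 1846 other lncRNAs, 17.3% and 23.3% were called. Among called members, 16 rose and 6 fell by 2-fold or more with VHL-r, and 25 rose and 8 fell by as much with R4VPL3-1. Changes of that size were called in 294 genes upward and 144 downward with VHL-r among all 15230 tested, and in 396 and 195 with R4VPL3-1, so that large rises outnumbered large falls there too. The median log2 fold change was -0.07 and 0.01, beside 0.00 and -0.01 over all genes.

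The share called was higher among members with more counts. The median 95% interval of a member's log2 fold change reached 0.48 to either side, against 0.17 for all genes. Among the 114 members with a mean of 100 or more, 27.2% and 33.3% were called with VHL-r and R4VPL3-1, against 22.4% and 27.8% of all genes at that level. Among the 129 members between 10 and 20, the shares were 6.98% and 9.3%, against 9.7% and 11.9%. A member that was not called is therefore not shown to be unmoved.

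The comparisons with VHL-r and with R4VPL3-1 share their DMSO libraries. Their calls are therefore not independent, and the values are given side by side.

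The largest rises were in antisense RNAs whose sense genes, where they could be tested, moved far less. PARD6G-AS1 (chr18:80147908-80179839, plus strand) overlaps the 3′ part of PARD6G, a member of the PAR6 family of cell polarity proteins. It had 76.3, 84.6 and 87.2 in DMSO, 235, 187 and 217 with VHL-r and 665, 432 and 384 with R4VPL3-1. All 3 groups were apart, with R4VPL3-1 highest and its replicate 1 the highest library. The means were 82.7 ± 5.71 (SD, n = 3), 213 ± 24.4 (SD, n = 3) and 494 ± 150.1 (SD, n = 3). The log2 fold change was 1.35 ± 0.15 (SE) with VHL-r and 2.52 ± 0.15 (SE) with R4VPL3-1 (adjusted p = 1.53e-06 and 9.29e-11). PARD6G itself stayed between 234 and 296 counts in all libraries, with log2 fold changes of -0.08 and -0.18 (adjusted p = 0.67 and 0.231).

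A pair of antisense RNAs lies at PSMD6, which encodes a subunit of the lid of the 26S proteasome. PSMD6-AS2 (chr3:64004022-64012148, plus strand) had 49.0, 31.5 and 47.7 in DMSO, 190.1, 172 and 144 with VHL-r and 261, 162 and 173 with R4VPL3-1. PSMD6-AS1 (chr3:64011964-64016246, plus strand) had 10.9, 20.7 and 18.2 in DMSO, 55.0, 75.6 and 49.2 with VHL-r and 99.0, 76.6 and 63.2 with R4VPL3-1. For both, every treated library was above every DMSO library. PSMD6-AS2 rose by 1.98 ± 0.19 (SE) and 2.19 ± 0.19 (SE) on the log2 scale with VHL-r and R4VPL3-1 (adjusted p = 1.38e-07 and 1.97e-08), and PSMD6-AS1 by 1.81 ± 0.25 (SE) and 2.22 ± 0.25 (SE) (adjusted p = 1.77e-05 and 9.23e-07). PSMD6 held at 5553, 5595 and 5500.3 in DMSO, 5574, 5405 and 5363 with VHL-r and 5347, 5334 and 5324 with R4VPL3-1, a log2 fold change of -0.03 and -0.06. Both antisense genes lie on the same strand and overlap at their facing ends, and 17.9% of the exon length of PSMD6-AS1 is shared with another gene of that strand, so the rows are not shown to be independent.

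PPP1R35-AS1 (chr7:100436204-100438504, plus strand) overlaps the start of PPP1R35, which encodes a centriole protein, with its own start 293 bases away. It had 10.9, 9.84 and 12.2 in DMSO, 55.0, 67.2 and 60.4 with VHL-r and 74.7, 51.7 and 78.2 with R4VPL3-1. The treated libraries were all several times above the DMSO libraries, and the 2 treated groups overlapped. The log2 fold change was 2.37 ± 0.22 (SE) and 2.51 ± 0.22 (SE) (adjusted p = 1.11e-07 and 2.85e-08). PPP1R35 was at 275, 282 and 314 in DMSO, 204, 225 and 274 with VHL-r and 261, 279 and 292 with R4VPL3-1, a log2 fold change of -0.32 with VHL-r (adjusted p = 0.046) and of -0.07 with R4VPL3-1. The call of PPP1R35 was lost in edgeR and DESeq2 and without any 1 DMSO library, without R4VPL3-1 replicate 2 and without VHL-r replicate 1 or 2 (adjusted p up to 0.221).

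ADAMTSL4-AS2 (chr1:150548562-150557724, minus strand) lies across the start of ADAMTSL4, a gene of fibrillin microfibrils, and had 7.26, 1.97 and 14.2 in DMSO, 36.0, 29.4 and 47.1 with VHL-r and 43.0, 36.8 and 39.6 with R4VPL3-1. IDI2-AS1 (chr10:1022618-1045425, plus strand) had 4.54, 9.84 and 10.1 in DMSO, 48.0, 36.8 and 48.1 with VHL-r and 32.7, 28.9 and 46.0 with R4VPL3-1. SLFNL1-AS1 (chr1:41014590-41043890, plus strand) had 148, 145 and 188 in DMSO, 400.3, 441 and 322 with VHL-r and 579.9, 474 and 383 with R4VPL3-1. In all 3 the treated libraries lay above the DMSO libraries without overlap. ADAMTSL4-AS2 rose by 2.39 ± 0.41 (SE) and 2.5 ± 0.41 (SE) on the log2 scale (adjusted p = 0.00018 and 8.48e-05), IDI2-AS1 by 2.36 ± 0.30 (SE) and 2.05 ± 0.30 (SE) (adjusted p = 6.34e-06 and 2.57e-05), and SLFNL1-AS1 by 1.27 ± 0.14 (SE) and 1.56 ± 0.14 (SE) (adjusted p = 9.11e-07 and 2.93e-08). ADAMTSL4 changed by 0.00 and 0.05. IDI2, an isopentenyl diphosphate isomerase gene, was listed at 0 in all libraries and SLFNL1 had a mean of 2.67 counts, so neither sense gene was tested.

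The remaining members among the 10 largest separated rises of either comparison had fewer counts. SNRK-AS1, at 1.82, 4.92 and 12.2 in DMSO, 25, 18.9 and 25.6 with VHL-r and 14.9, 25.9 and 20.3 with R4VPL3-1, rose by 1.99 and 1.79 on the log2 scale (adjusted p = 0.00192 and 0.00364). CYP2U1-AS1, at 8.17, 9.84 and 6.08 in DMSO, 30.0, 26.3 and 17.4 with VHL-r and 30.8, 22.9 and 22.5 with R4VPL3-1, rose by 1.49 and 1.55 (adjusted p = 0.00127 and 0.00066), and CYP2U1, a cytochrome P450 gene, rose too, by 0.66 and 0.75. STARD4-AS1, at 7.26, 0.98 and 4.06 in DMSO, 21.0, 10.5 and 9.22 with VHL-r and 23.3, 10.9 and 15.0 with R4VPL3-1, rose by 1.66 and 1.94 (adjusted p = 0.019 and 0.00524). STARD4, which encodes a cholesterol carrier, was lower with VHL-r, at -0.40 (adjusted p = 0.0057) and at 0.02 with R4VPL3-1. SGO1-AS1, opposite the centromere cohesion gene SGO1, rose by 1.55 and 1.40 (adjusted p = 0.00363 and 0.00641), and CBR1-AS1 by 1.81 and 1.15 (adjusted p = 0.00216 and 0.0384). The STARD4-AS1 call with VHL-r was lost without DMSO replicate 2 or VHL-r replicate 1, with adjusted p up to 0.119. That of CBR1-AS1 with R4VPL3-1 was lost under 10 alternatives, without DMSO replicate 2 or 3, R4VPL3-1 replicate 1 or 3, or VHL-r replicate 2 among them, with adjusted p up to 0.17.

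Falls were smaller. GOLGA4-AS1 (chr3:37241789-37244202, minus strand) lies across the start of GOLGA4, which encodes a golgin of the trans-Golgi, and had 92.6, 119 and 93.3 in DMSO, 38.0, 33.6 and 38.9 with VHL-r and 60.7, 55.7 and 67.5 with R4VPL3-1. The 3 groups did not overlap, with DMSO highest and VHL-r lowest. It fell by 1.43 ± 0.17 (SE) on the log2 scale with VHL-r (adjusted p = 3.99e-06) and by 0.72 ± 0.17 (SE) with R4VPL3-1 (adjusted p = 0.0043), while GOLGA4 changed by 0.00 and -0.05.

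PHLDA1-AS1 (chr12:76030494-76031378, plus strand) lies within PHLDA1, a gene known to be induced by ERK signaling, and had 38.1, 56.1 and 39.5 in DMSO, 14, 24.2 and 12.3 with VHL-r and 10.3, 17.9 and 7.49 with R4VPL3-1. PHLDA1 had 10972, 11316 and 11394 in DMSO, 5109, 5189 and 5214 with VHL-r and 3276, 3462 and 3673 with R4VPL3-1. Both were lower in every treated library than in any DMSO library. PHLDA1-AS1 fell by 1.39 ± 0.33 (SE) and 1.88 ± 0.33 (SE) (adjusted p = 0.00431 and 0.000201), and PHLDA1 fell by 1.12 and 1.70 (adjusted p = 4.64e-13 and 2.77e-16). The difference between their changes, -0.27 ± 0.36 (SE) and -0.19 ± 0.36 (SE), did not pass the test (adjusted p = 0.68 and 0.756), which does not show that they moved alike.

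TRHDE-AS1, within the gene of the enzyme that degrades thyrotropin-releasing hormone, was the most abundant of the large falls. It had 516, 578 and 539 in DMSO, 301, 307 and 256 with VHL-r and 256, 269.6 and 284 with R4VPL3-1. All treated libraries were below all DMSO libraries. It fell by 0.92 ± 0.09 (SE) and 1.01 ± 0.09 (SE) on the log2 scale (adjusted p = 2.59e-07 and 4.09e-08), against -0.12 and -0.17 for TRHDE, neither of which was called. ARHGAP5-AS1 fell by 0.94 and 0.96 and ARHGAP5 by 0.21 and 0.22, all called. LPP-AS2 fell by 0.83 and 0.96 (adjusted p = 0.000845 and 0.00015), while LPP, a focal adhesion gene, was at 0.21 and 0.32, called only with R4VPL3-1 (adjusted p = 0.00525) and not without DMSO replicate 2 (0.0522).

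DIRC3-AS1 fell by 0.95 and 1.21 on the log2 scale (adjusted p = 0.00221 and 0.000177), and MBNL1-AS1, within the splicing factor gene MBNL1, by 0.95 and 0.78 (adjusted p = 0.00505 and 0.016). CD109-AS1 fell by 1.78 and 1.09 (adjusted p = 0.00179 and 0.0418), beside -0.01 and -0.03 for CD109, a surface protein that binds TGF-beta. RARA-AS1 fell by 1.17 and 1.15 (adjusted p = 0.0289 and 0.026), and the retinoic acid receptor gene RARA by 0.41 and 0.42. Falls called with VHL-r and not with R4VPL3-1 included those of HEXIM2-AS1 (-1.04, adjusted p = 0.0191) and ATP6V0E2-AS1 (-0.94, adjusted p = 0.00488). Falls called with R4VPL3-1 and not with VHL-r included those of GORAB-AS1 (-1.28, adjusted p = 0.00237), ITGB2-AS1 (-1.13, adjusted p = 0.00893), FOXC2-AS1 (-1.10, adjusted p = 0.0305) and SLCO4A1-AS1 (-0.90, adjusted p = 0.00256). None of these 6 antisense RNAs differed between the compounds at the threshold. The gene FOXC2 was itself called with R4VPL3-1, with VHL-r and between the compounds. Its adjusted p was at most 1.39e-09, 2.5e-06 and 0.00111 in turn under every alternative. HEXIM2 was called with VHL-r, but not in DESeq2 or without DMSO replicate 3 or VHL-r replicate 1 (adjusted p up to 0.137). GORAB, ITGB2, SLCO4A1 and ATP6V0E2 were not called.

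Several of these falls rest on few counts. Each of the following calls was lost when 1 of the named libraries was left out: CD109-AS1 with R4VPL3-1 (DMSO replicate 2 or 3, or R4VPL3-1 replicate 1 or 2), RARA-AS1 with both (DMSO replicate 3, R4VPL3-1 replicate 1, or VHL-r replicate 1 or 2), MBNL1-AS1 with R4VPL3-1 (DMSO replicate 1 or 2, or R4VPL3-1 replicate 3), HEXIM2-AS1 (DMSO replicate 2 or 3, or VHL-r replicate 1), FOXC2-AS1 (DMSO replicate 1 or 2, or R4VPL3-1 replicate 1) and ITGB2-AS1 (R4VPL3-1 replicate 3). Adjusted p then reached 0.225 for CD109-AS1, 0.157 for RARA-AS1, 0.0723 for MBNL1-AS1, 0.0842 for HEXIM2-AS1, 0.172 for FOXC2-AS1 and 0.052 for ITGB2-AS1. DESeq2 did not make these calls, apart from that of ITGB2-AS1.

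The difference between an antisense RNA and its sense gene was tested directly, as the log2 ratio of both in each library. With VHL-r, the change differed in 49 of the 396 pairs, 28 with the antisense RNA higher relative to its gene and 21 with it lower, against 10.3% of all 623 pairs of a named lncRNA and its gene. With R4VPL3-1 it differed in 60, 37 higher and 23 lower, against 13.2% of the 623. These 623 include the 396. Of the 227 pairs outside them, 15 differed with VHL-r and 22 with R4VPL3-1. In 26 of the 49 and 35 of the 60 the sense gene was not called, in 20 and 17 the antisense RNA was not called, and in 6 and 7 the sense gene was called in the opposite direction. These classes can overlap. Among all 396 pairs, antisense RNA and gene both rose in 4 and both fell in 5 with VHL-r, and both rose in 8 and both fell in 7 with R4VPL3-1. The antisense RNA rose and the gene fell in 5 with each compound, and the reverse held in 1 with VHL-r and 3 with R4VPL3-1. With no filter on low values the counts were 7 and 18. The count with VHL-r was 28 to 32 without DMSO replicate 1 or 2 or VHL-r replicate 1 or 2, and that with R4VPL3-1 was 37 without DMSO replicate 2 and 35 without R4VPL3-1 replicate 1.

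**Figure D1:**
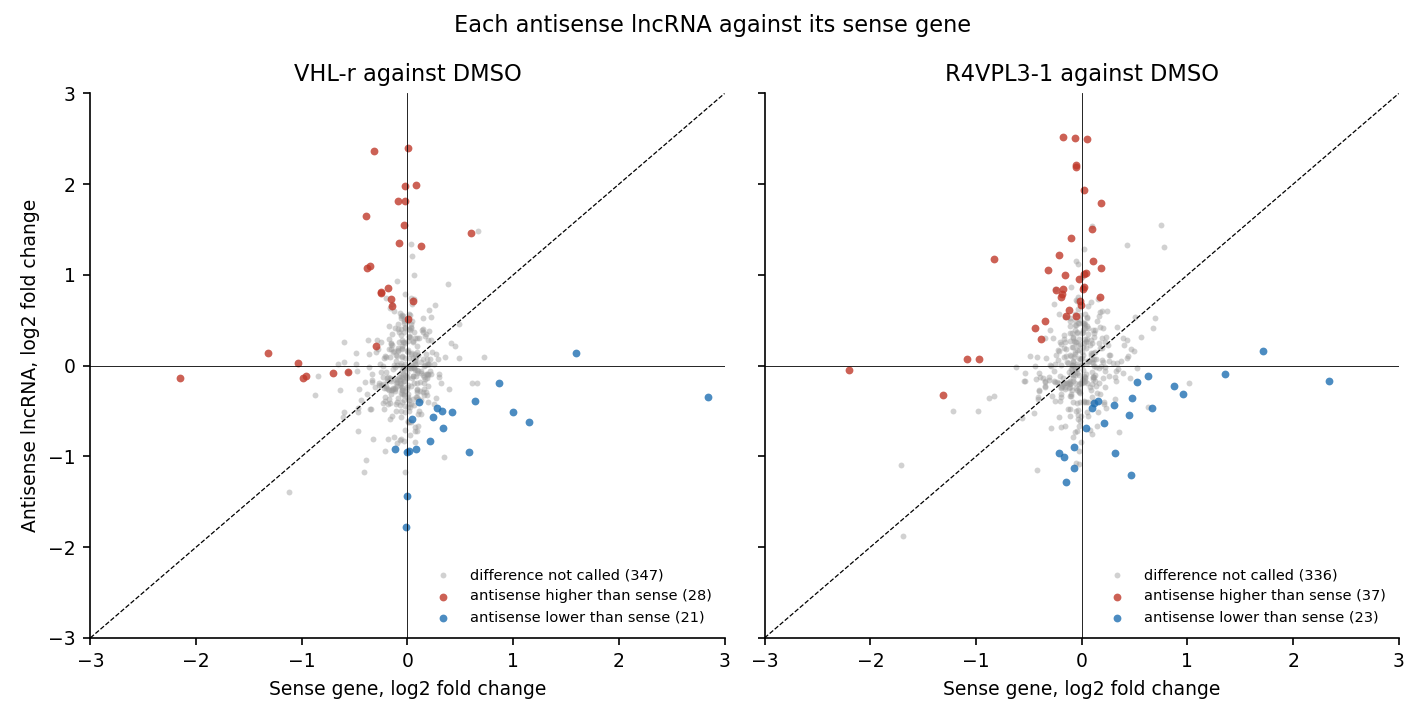
Log2 fold change of each antisense lncRNA (vertical) against that of its sense gene (horizontal) for 396 pairs, for VHL-r and for R4VPL3-1 against DMSO, with a dashed line where both change equally. Red points, 28 and 37, are pairs whose antisense RNA moved up relative to its gene, and blue points, 21 and 23, are those where it moved down.

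Among the named pairs in which the antisense RNA moved were PPP1R35-AS1 (2.69 ± 0.19 (SE) with VHL-r and 2.58 ± 0.19 (SE) with R4VPL3-1, adjusted p = 1.52e-05 and 2.32e-05) and PARD6G-AS1 (1.43 ± 0.24 (SE) and 2.70 ± 0.24 (SE), adjusted p = 0.00384 and 5.73e-05). ADAMTSL4-AS2 differed by 2.39 and 2.45, PSMD6-AS2 by 2.00 and 2.24, PSMD6-AS1 by 1.84 and 2.27, STARD4-AS1 by 2.05 and 1.91 and SNRK-AS1 by 1.91 and 1.61, all called. In the other direction, DIRC3-AS1 differed by -1.54 and -1.67, and CD109-AS1 by -1.77 with VHL-r (adjusted p = 0.00695). CYP1B1-AS1, with 5.45, 4.92 and 4.06 in DMSO, 13.0, 10.5 and 10.2 with VHL-r and 8.4, 7.96 and 25.7 with R4VPL3-1, differed from the cytochrome P450 gene CYP1B1 by 1.46 and 2.02 (adjusted p = 0.0356 and 0.00546). CYP1B1 fell by 0.83 with R4VPL3-1 (adjusted p = 7.64e-05), and the rise of CYP1B1-AS1 by 1.18 (adjusted p = 0.0479) was lost without its highest library, R4VPL3-1 replicate 3, or without any 1 DMSO or VHL-r library, with adjusted p up to 0.291.

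In other pairs the gene moved and its antisense RNA did not pass the test. FOXD3, a forkhead transcription factor of neural crest and melanocyte precursors, had 333, 484 and 427 in DMSO, 72.0, 92.4 and 116 with VHL-r and 94.3, 93.5 and 78.2 with R4VPL3-1. FOXD3-AS1, which overlaps its start, had 115, 144 and 141 in DMSO, 121, 102 and 143 with VHL-r and 119.5, 130.3 and 136 with R4VPL3-1. Every treated library of FOXD3 was far below the DMSO libraries, whereas the groups of FOXD3-AS1 overlapped. FOXD3 fell by 2.15 ± 0.16 (SE) and 2.20 ± 0.16 (SE), FOXD3-AS1 changed by -0.13 and -0.05 (95% interval -0.43 to 0.17 and -0.35 to 0.25), and the difference was 2.02 ± 0.19 (SE) and 2.15 ± 0.19 (SE) (adjusted p = 0.000111 and 5.73e-05).

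MMP25, a membrane-anchored metalloproteinase gene, showed the opposite direction, with 6.36, 9.84 and 12.2 in DMSO, 80.1, 81.9 and 56.3 with VHL-r and 50.4, 59.7 and 42.8 with R4VPL3-1. MMP25-AS1 had 179.8, 173 and 207 in DMSO, 167, 132 and 142 with VHL-r and 183, 166 and 149.9 with R4VPL3-1. Every treated library of MMP25 was above the DMSO libraries. MMP25-AS1 was lower in all VHL-r libraries than in DMSO but overlapped with R4VPL3-1, and was at -0.34 and -0.17 (adjusted p = 0.0625 and 0.383). MMP25 rose by 2.84 ± 0.26 (SE) and 2.34 ± 0.26 (SE), and the antisense RNA differed from it by -3.18 ± 0.25 (SE) and -2.51 ± 0.25 (SE) (adjusted p = 2.47e-05 and 0.000131). FLG-AS1 was at 0.14 and 0.07 while the filaggrin gene FLG fell by 1.32 and 1.09 (difference 1.46 and 1.16, adjusted p = 0.00214 and 0.0055). CCDC144NL-AS1 was at 0.14 and 0.16 while CCDC144NL rose by 1.6 and 1.72 (difference -1.46 and -1.55, adjusted p = 0.00207 and 0.0012).

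R4VPL3-1 and VHL-r were compared at the same dose and time, and few antisense lncRNAs differed. The whole molecule differs from VHL-r by carrying the RNF4-binding part and the linker. Of 470 members, 2 were higher with R4VPL3-1, 0.426%, against 1.87% of all genes, 1.14% higher and 0.729% lower. No member was called lower by limma, edgeR or DESeq2, and 39 had an unadjusted limma p under 0.05 in either direction. With edgeR and with DESeq2, 2 members each were called higher, though DESeq2 gave an adjusted p to only 303 of the 470. The members called by limma were PARD6G-AS1, at 1.17 ± 0.15 (SE) (adjusted p = 6.14e-05), and GOLGA4-AS1, at 0.72 ± 0.17 (SE) (adjusted p = 0.0339). GOLGA4-AS1 thus fell less with R4VPL3-1 than with VHL-r, but the call was lost in edgeR, DESeq2 and without any 1 of the 6 treated libraries, with adjusted p up to 0.164. The median 95% interval of the difference reached 0.48 to either side over all members and 0.25 among the 114 with a mean of 100 or more, so a member not called is not shown to respond alike to both.

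Among the 396 pairs, 1 differed between the compounds. It was also the only 1 of the 623 (0.161%), and 0 of the 227 outside the members differed. ARRDC3, which encodes an alpha-arrestin, had 212, 291 and 288 in DMSO, 291, 306 and 291 with VHL-r and 784, 729 and 528 with R4VPL3-1. ARRDC3-AS1 had 20.9, 31.5 and 29.4 in DMSO, 28.0, 24.2 and 23.6 with VHL-r and 33.6, 20.9 and 22.5 with R4VPL3-1. ARRDC3 was above all other libraries in each R4VPL3-1 library, and the groups of ARRDC3-AS1 overlapped. The gene was higher with R4VPL3-1 than with VHL-r by 1.18 ± 0.13 (SE) (adjusted p = 5.29e-06), ARRDC3-AS1 was at 0.00, and the difference of -1.18 ± 0.18 (SE) (adjusted p = 0.0286) was no longer called without DMSO replicate 2 or 3, any 1 VHL-r library, or R4VPL3-1 replicate 1 or 2, which each left 0 pairs.

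Members that start within 10 kb past the end of another gene on their own strand had a larger share called higher. Most members called higher still started elsewhere. For each member, the nearest tested protein-coding gene upstream on the same strand was found, a grouping chosen after the values were seen and therefore given as counts with no test. Within 10 kb past the annotated end of such a gene lay the starts of 63 members, of which 17 were called higher with VHL-r (27%) and 21 with R4VPL3-1 (33.3%), with 3 lower in each. Of the 407 others, 22 (5.41%) and 38 (9.34%) were higher and 32 and 34 lower. The median log2 fold change was 0.30 and 0.32 within 10 kb and -0.11 and -0.03 elsewhere. The median level was alike, at 43.2 and 41.2 counts.

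By distance, the share of members higher with R4VPL3-1 was 6 of 16 within 2 kb, 6 of 17 from 2 to 5 kb, 9 of 30 from 5 to 10 kb, 5 of 27 from 10 to 20 kb, 6 of 51 from 20 to 50 kb and 25 of 324 beyond. The bins below 5 kb hold fewer than 20 members each. Of the members that rose by 2-fold or more, 10 of 16 with VHL-r and 13 of 25 with R4VPL3-1 started within 10 kb. Other lncRNAs were called higher in 20.2% and 25.3% of 312 within 10 kb and in 7.18% and 12.6% of 1532 elsewhere. For protein-coding genes the shares were 11.3% and 13.8% of 1923 within 10 kb and 10.4% and 12.7% of 10569 elsewhere. Genes that start inside another gene of their strand are counted here as elsewhere. Of 246 such protein-coding genes, 20.7% and 22.8% were higher and 4.88% and 7.32% lower. Higher too were 25.6% and 30.2% of 43 such other lncRNAs, and 2 of 4 such members with each compound.

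**Figure D2:**
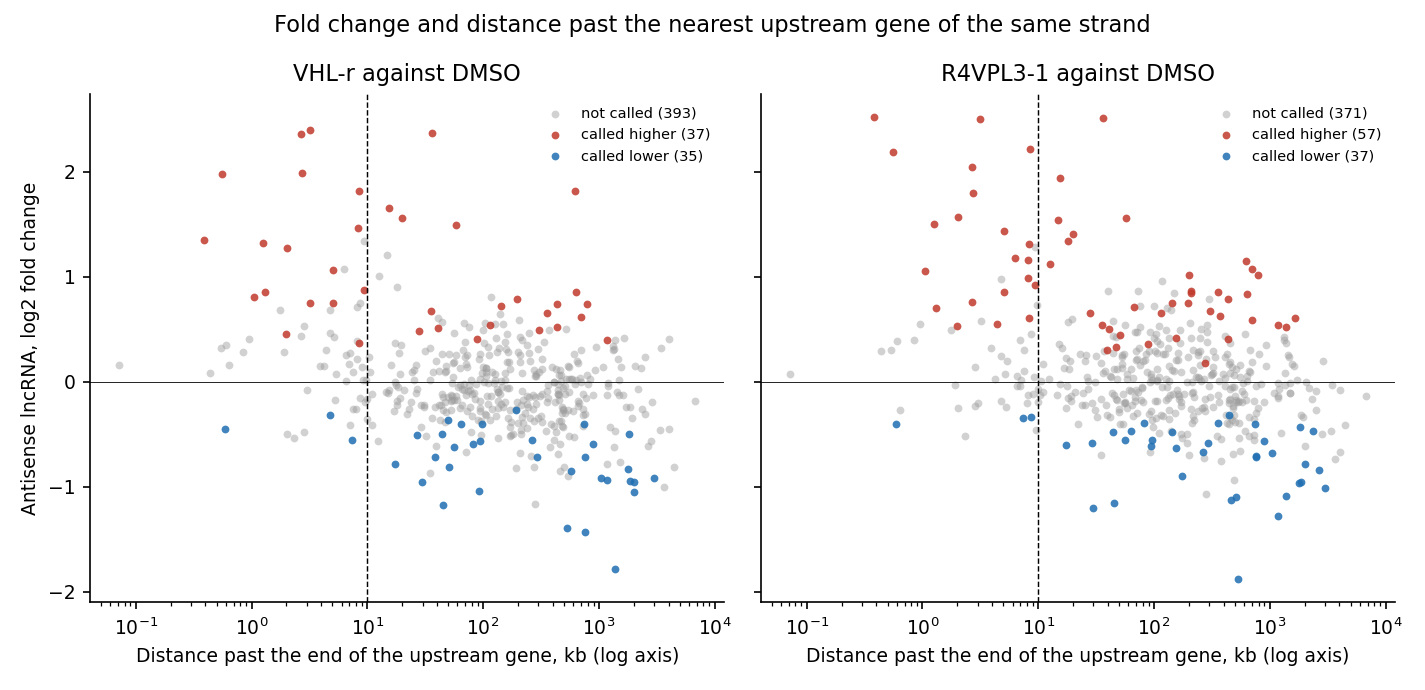
Log2 fold change of the antisense lncRNAs that start past the end of an upstream protein-coding gene of the same strand (vertical) against the distance from that end in kb (log axis), with a dashed line at 10 kb. Of the members called higher by 2-fold or more, 10 of 16 with VHL-r and 13 of 25 with R4VPL3-1 lie left of the line, and all called falls of 2-fold or more lie to its right.

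**Figure D3:**
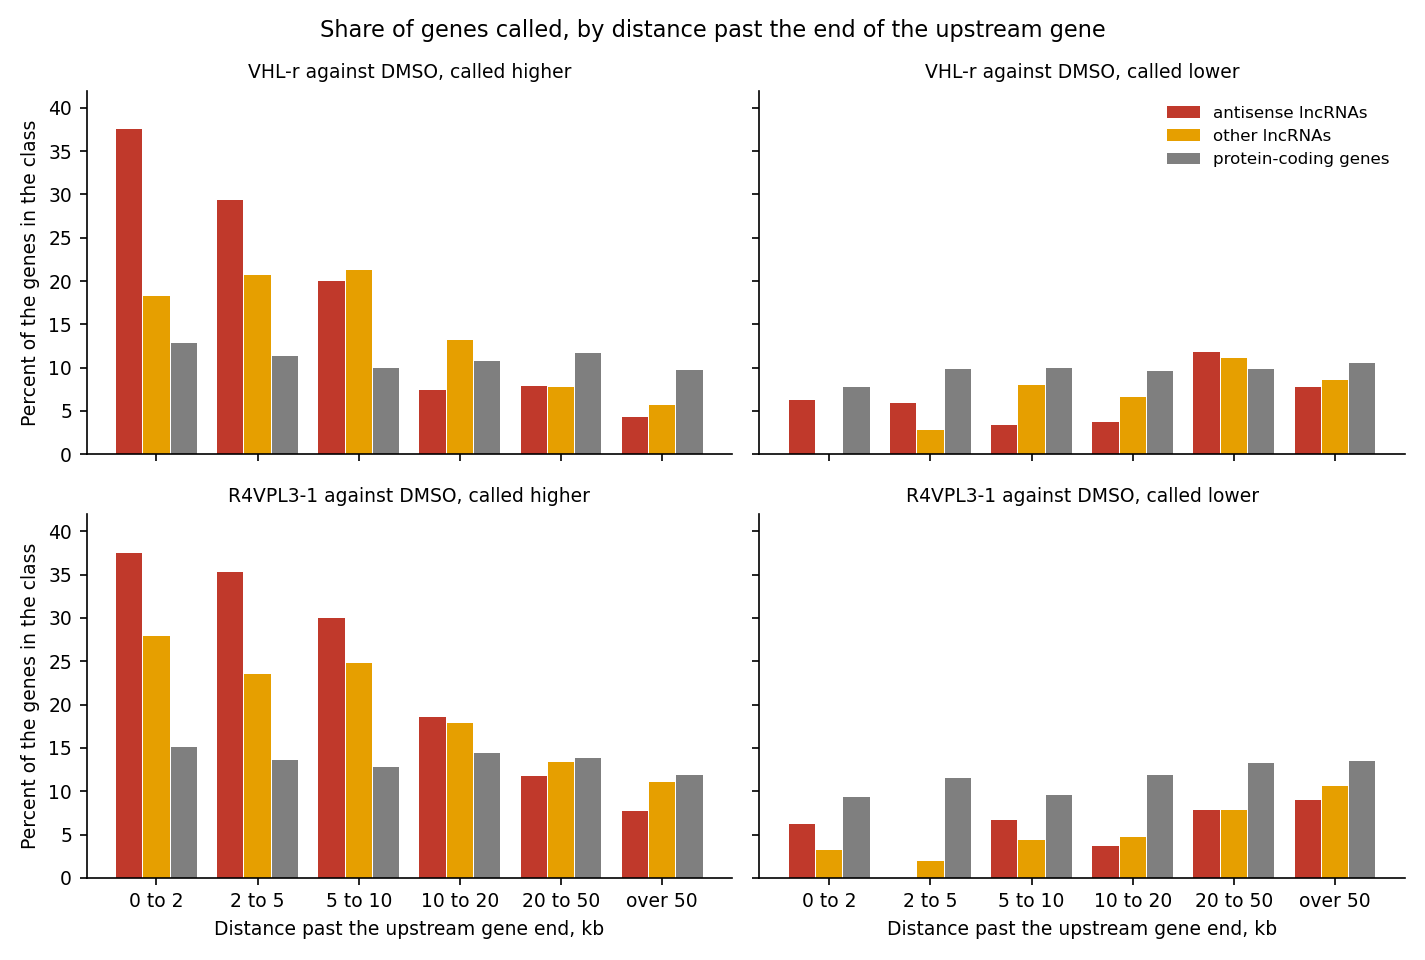
Percent of antisense lncRNAs, other lncRNAs and protein-coding genes called higher (left) and lower (right) in each bin of distance past the upstream gene's end, with VHL-r (top) and R4VPL3-1 (bottom) against DMSO. For antisense lncRNAs the share called higher falls from 37.5% within 2 kb to 4.32% and 7.72% beyond 50 kb, while that of protein-coding genes stays between 9.77% and 15.1% in these bins. Genes that start inside another gene of their strand are not drawn.

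Among the named members that rose, PARD6G-AS1 started 385 bases past ADNP2, a zinc finger homeobox gene, PSMD6-AS2 560 bases past ATXN7, a gene of the SAGA complex, SLFNL1-AS1 2025 bases past the CTP synthase gene CTPS1, IDI2-AS1 2686 past the ribosome assembly gene GTPBP4, SNRK-AS1 2707 past ANO10 and ADAMTSL4-AS2 3171 past MCL1, an inhibitor of apoptosis. PPP1R35-AS1 started farther off, 36108 bases past PILRA, as did STARD4-AS1, 15510 past CAMK4, SGO1-AS1, 19840 past KAT2B, and CYP2U1-AS1, whose start lies 10 bases from the divergent start of HADH. Among members outside the naming rule, chosen after their values were seen, SH3BP5-AS1 rose by 1.32 and 1.5 on the log2 scale with VHL-r and R4VPL3-1 at 1268 bases past CAPN7, KANSL1L-AS1 by 1.46 and 1.31 at 8312 past RPE, and GLIPR1-AS1 by 0.81 and 1.05 at 1043 past KRR1.

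For the 17 members within 10 kb that rose with VHL-r, 1 upstream gene was higher, 3 lower and 13 not called, with a median log2 fold change of -0.04 against 1.27 for the members. For the 21 with R4VPL3-1, the counts were 1, 4 and 16, and the medians -0.06 and 1.18. For the members within 10 kb that were not called, 3 of 43 upstream genes were higher and 34 not called with VHL-r, and 3 of 39 and 32 with R4VPL3-1, beside 10.3% and 13.1% of all genes higher. ADNP2 fell by 0.37 with R4VPL3-1 (adjusted p = 0.000365), CTPS1 fell by 0.14 (adjusted p = 0.0292), MCL1 rose by 0.24 (adjusted p = 0.000417) and ATXN7 was at 0.04. Other members near an upstream end fell, such as BCAN-AS2, 7339 bases past NES, by 0.55 and 0.34. The BCAN-AS2 call with R4VPL3-1 was lost without DMSO replicate 3 or R4VPL3-1 replicate 1, with adjusted p up to 0.0984. The level of reads between the gene ends and these starts was not analysed here.

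The sequence around the start is given as a description, with no test. RefSeq start windows on GRCh38.p14, of 300 bases from 250 before to 50 after the start, matched 361 of the 470 members, and 233 of these started within 100 bases of the deposited start. The ratio of observed to expected CG dinucleotides had a median of 0.77 in the members and 0.58 in all 35116 windows of the table. It was above 0.6 in 17 of 41 members within 10 kb past a gene end (41.5%), in 235 of 320 others (73.4%) and in 48.8% of all windows. Of the 15 members within 10 kb that rose with R4VPL3-1, 4 were above 0.6, with a median of 0.34, and of the 25 within 10 kb not called in that comparison, 52.0% were, with a median of 0.65. The dinucleotide CG, the same on both strands, occurs in 96.0% of all windows. TATAAA, searched on both strands, occurs in 11.5% of all windows and 7.48% of the members' windows, and GGGCGG, searched on both strands, in 45% of all windows, 34.1% of those within 10 kb and 62.8% of the others. A match is a description of these letters and not a site.

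The windows of 4 risers that start past a gene end are printed as examples with few CG dinucleotides. They were picked by hand and not by a rule, and do not stand for all such risers, of which 4 of 15 had a ratio above 0.6. PSMD6-AS1 starts inside PSMD6-AS2 on the same strand, so these windows come from the same locus. Beside them stand GOLGA4-AS1, a faller at the start of its gene, and FGD5-AS1, the most abundant member, whose window is rich in CG. Each is given 5′ to 3′ on the strand of the antisense RNA, with every CG in capitals. PSMD6-AS2 (chr3:64003772-64004071, plus strand) has 2 CG and a ratio of 0.24, PSMD6-AS1 (chr3:64011714-64012013, plus strand) 5 and 0.34, ADAMTSL4-AS2 (chr1:150557675-150557974, minus strand) 8 and 0.33, SLFNL1-AS1 (chr1:41014340-41014639, plus strand) 1 and 0.05, GOLGA4-AS1 (chr3:37244146-37244445, minus strand) 17 and 0.79 and FGD5-AS1 (chr3:14948392-14948691, minus strand) 32 and 0.85.
PSMD6-AS2: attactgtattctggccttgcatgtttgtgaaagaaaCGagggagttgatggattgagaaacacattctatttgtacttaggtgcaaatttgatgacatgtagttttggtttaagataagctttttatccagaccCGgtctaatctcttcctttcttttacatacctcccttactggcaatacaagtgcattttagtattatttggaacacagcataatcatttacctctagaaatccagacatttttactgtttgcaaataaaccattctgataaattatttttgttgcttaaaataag
PSMD6-AS1: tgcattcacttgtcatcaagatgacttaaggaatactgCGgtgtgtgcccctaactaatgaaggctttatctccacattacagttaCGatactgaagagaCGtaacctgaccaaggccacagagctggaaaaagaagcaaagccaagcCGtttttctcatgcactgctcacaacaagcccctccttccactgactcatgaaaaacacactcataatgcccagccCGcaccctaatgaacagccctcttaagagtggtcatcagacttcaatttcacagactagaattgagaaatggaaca
ADAMTSL4-AS2: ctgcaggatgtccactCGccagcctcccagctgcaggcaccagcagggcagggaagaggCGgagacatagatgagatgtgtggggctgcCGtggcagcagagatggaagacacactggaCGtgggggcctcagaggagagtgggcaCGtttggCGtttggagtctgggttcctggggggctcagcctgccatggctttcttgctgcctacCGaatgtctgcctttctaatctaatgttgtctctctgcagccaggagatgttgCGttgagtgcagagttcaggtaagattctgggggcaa
SLFNL1-AS1: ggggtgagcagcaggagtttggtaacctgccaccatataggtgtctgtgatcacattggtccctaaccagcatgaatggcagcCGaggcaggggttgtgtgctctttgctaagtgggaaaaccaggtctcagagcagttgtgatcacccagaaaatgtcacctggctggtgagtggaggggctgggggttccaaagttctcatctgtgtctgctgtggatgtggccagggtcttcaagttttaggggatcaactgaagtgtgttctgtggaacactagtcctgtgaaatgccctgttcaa
GOLGA4-AS1: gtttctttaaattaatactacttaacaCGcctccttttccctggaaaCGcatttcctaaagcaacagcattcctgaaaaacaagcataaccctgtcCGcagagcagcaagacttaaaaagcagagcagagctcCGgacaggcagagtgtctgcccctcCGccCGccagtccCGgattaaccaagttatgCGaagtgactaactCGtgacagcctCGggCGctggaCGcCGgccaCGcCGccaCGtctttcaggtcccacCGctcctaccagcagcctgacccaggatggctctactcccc
FGD5-AS1: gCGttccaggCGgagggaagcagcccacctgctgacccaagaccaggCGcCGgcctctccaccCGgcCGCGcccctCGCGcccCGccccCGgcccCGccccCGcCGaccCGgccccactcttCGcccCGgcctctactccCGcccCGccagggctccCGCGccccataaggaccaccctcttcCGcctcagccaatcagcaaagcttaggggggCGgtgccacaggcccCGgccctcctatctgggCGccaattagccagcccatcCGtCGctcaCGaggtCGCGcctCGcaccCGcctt

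Members were also grouped by how they lie to the sense gene. Of the 464 members with a sense row, 271 overlapped the start of the sense gene, 90 its end, 79 lay within it and 22 were head to head with a gap, and 1 each was tail to tail and on the same strand. With R4VPL3-1 the shares called were 19.2%, 16.7%, 29.1% and 27.3% in the first 4 classes, and with VHL-r 15.9%, 13.3%, 17.7% and 22.7%. Of all genes tested, 24.9% were called with R4VPL3-1 and 19.8% with VHL-r. By start distance, 17.8% and 19.9% of the 146 within 1 kb of the sense start were called with VHL-r and R4VPL3-1, 15.7% and 19.4% of the 108 at 1 to 10 kb, and 14.8% and 21.9% of the 210 beyond, all below the share of all genes. Exons of antisense RNA and gene overlapped in 362 pairs. Of 24 antisense rows, members or not, whose exons overlap at least 1000 sense counts, 6 were under 0.1% of them. Wrong-strand reads from the sense gene, at an assumed 0.1% and spread evenly over its exons, would give at most 19.7% of the value of any member opposite it. Other genes on the opposite strand were not counted in this.

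Antisense lncRNAs with a published role were taken from a fixed list, on which PARD6G-AS1 and GABPB1-AS1 were the members that rose. GABPB1-AS1 lies across the start of GABPB1, a subunit of the transcription factor GABP, is known to limit GABPB1 translation, and has been reported to be induced by the ferroptosis inducer erastin in liver cancer cells. It had 258, 334 and 389 in DMSO, 519, 503 and 461 with VHL-r and 816, 638 and 604 with R4VPL3-1. The 3 groups did not overlap, with R4VPL3-1 highest. It rose by 0.61 ± 0.12 (SE) and 1.07 ± 0.12 (SE) on the log2 scale (adjusted p = 0.000928 and 1.06e-06), and GABPB1 by 0.20 and 0.19 (adjusted p = 0.0248 and 0.0295). The difference was called with R4VPL3-1, at 0.89 ± 0.18 (SE) (adjusted p = 0.00842), and was 0.41 with VHL-r (adjusted p = 0.174). The calls of GABPB1 were lost without DMSO replicate 2 or 3 or replicate 1 or 2 of the compound, with adjusted p up to 0.131. Between the compounds GABPB1-AS1 was not called in the main fit, and its adjusted p ran from 0.00842 to 0.416 over the alternatives.

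Of the other members on that list, TPT1-AS1, TMPO-AS1, DLGAP1-AS2 and VIM-AS1 fell. TPT1-AS1, with 271, 273 and 346 in DMSO, 162, 211 and 203 with VHL-r and 214, 179 and 208 with R4VPL3-1, fell by 0.62 and 0.56 (adjusted p = 0.000959 and 0.00204), against 0.01 and 0.06 for TPT1, the gene of the abundant protein TCTP. TMPO-AS1 fell by 0.40 and 0.56 (adjusted p = 0.00388 and 0.000135), while the nuclear lamina gene TMPO was at -0.05 and -0.11. DLGAP1-AS2 (-0.48, adjusted p = 0.00467) and VIM-AS1 (-0.40, adjusted p = 0.0162, 0.105 without DMSO replicate 3) were called with R4VPL3-1. The log2 fold changes of MCM3AP-AS1, ZEB1-AS1, SBF2-AS1, HOXA-AS2, KDM4A-AS1, ZNF561-AS1, DLGAP1-AS1 and SLC16A1-AS1 ranged from -0.43 to 0.11 with VHL-r and from -0.51 to 0.21 with R4VPL3-1, and none was called. The sense gene SBF2 was called with R4VPL3-1, and SLC16A1 and ZEB1 with VHL-r. Each of these calls was lost under some alternatives, with adjusted p up to 0.171, 0.0521 and 0.247. Below the mean of 10 were HIF1A-AS1 at 9.95, HOXC-AS1 at 8.28, HIF1A-AS3 at 2.07, AFAP1-AS1 at 1.89, LOXL1-AS1 at 1.00 and EGFR-AS1 at 0.101, while OIP5-AS1, PSMA3-AS1 and THAP9-AS1 were listed at 0 and HIF1A-AS2 was not matched. A listed 0 is not shown to mean that the RNA was absent from the cells, and its cause was not tested.

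A fixed list of stress, ERK and transcription genes held the sense genes of SPRY4-AS1, CEBPB-AS1, PRKCQ-AS1, USP2-AS1 and ZEB1-AS1, and none of these 5 antisense RNAs was called. SPRY4, a feedback inhibitor of receptor tyrosine kinase signaling, had 2504, 2346 and 2579.8 in DMSO, 1531, 1589 and 1636 with VHL-r and 979, 1091 and 1118 with R4VPL3-1. SPRY4-AS1 had 57.2, 67.9 and 73.0 in DMSO, 65.0, 43.1 and 57.4 with VHL-r and 38.3, 41.8 and 62.1 with R4VPL3-1. SPRY4 fell stepwise from DMSO to VHL-r to R4VPL3-1 with no overlap, by 0.64 ± 0.06 (SE) and 1.22 ± 0.06 (SE), and SPRY4-AS1 was at -0.27 and -0.49 (adjusted p = 0.441 and 0.0984), with a difference that was not called (0.37 and 0.73, adjusted p = 0.327 and 0.0545). CEBPB, a stress-responsive transcription factor gene, rose by 0.47 with R4VPL3-1 (adjusted p = 0.00171), and CEBPB-AS1 was at 0.19 (adjusted p = 0.583). PRKCQ-AS1, USP2-AS1 and ZEB1-AS1 had log2 fold changes between -0.43 and 0.08. Of their genes, USP2 was called with R4VPL3-1 and ZEB1 with VHL-r. Both calls were lost under 7 alternatives, with adjusted p up to 0.144 and 0.247. Among the abundant members, WARS2-AS1, opposite the mitochondrial tryptophan tRNA ligase gene, rose by 0.40 and 0.54 (adjusted p = 0.000879 and 2.59e-05), and THUMPD3-AS1 by 0.66 and 0.85 (adjusted p = 8.5e-07 and 1.35e-08). The gene THUMPD3 was called with R4VPL3-1, but not without DMSO replicate 2 or 3 or R4VPL3-1 replicate 1 or 2 (adjusted p up to 0.142). PRR7-AS1 fell by 0.34 with R4VPL3-1 (adjusted p = 0.000774), as did its gene PRR7, by 0.29 (adjusted p = 0.00846, and 0.0677 without DMSO replicate 3). PTOV1-AS2 fell by 0.45 and 0.40 (adjusted p = 0.0247 and 0.0392) with overlapping groups, and both calls needed DMSO replicates 1 and 3 and VHL-r replicate 2 in the fit. The call with VHL-r was also lost without VHL-r replicate 3, and that with R4VPL3-1 without R4VPL3-1 replicate 2 or 3, with adjusted p up to 0.224. MAGEA4-AS1, opposite the cancer-testis antigen gene MAGEA4, was at 0.30 with R4VPL3-1 (adjusted p = 0.0125), and ENTPD1-AS1 at 0.18 (adjusted p = 0.0444). Both calls were lost without DMSO replicate 1 or R4VPL3-1 replicate 1, and that of ENTPD1-AS1 also without DMSO replicate 2, VHL-r replicate 2 or R4VPL3-1 replicate 2.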

How the data were processed

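RNA was sequenced from 9 libraries of A375R cells, 3 per treatment, with strand kept and single reads 100 bases long. The authors used STAR 2.5.3a for alignment to GRCh38, counted them per gene with htseq-count 2.0.2 in reverse-stranded mode and deposited values divided by DESeq2 1.36.0 size factors, which are a normalized signal per gene and not raw counts. Such a count assigns a read to an antisense gene, whichever transcript it came from, where no other gene of that strand has an exon there. Of the members, 427 share no exon bases with another gene of their strand, and 12 share over 10% of theirs. How reads in shared bases were counted is not described. Raw reads recovered from the size-factor steps, whole to within 0.0101, gave 26435568 to 32085626 reads per library and served only the alternative tests.

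Genes with a mean of at least 10 were tested, 15230 in all. The test was limma 3.58.1 in R 4.3.3, with trend, on log2(value + 1), in a single-factor fit of all 9 libraries, with Benjamini-Hochberg adjustment over all tested genes and calls at an adjusted p of at most 0.05. Fold changes are on this log2(value + 1) scale, which understates changes of low genes. The log2 ratio of antisense to sense was tested in the same way over 623 pairs of a lncRNA named -AS, -DT, -IT or -OT and its gene. Alternatives were pseudocounts of 0.1 and 5, no filter, a mean of at least 50, TMM factors, robust limma, edgeR 4.0.16 and DESeq2 1.42.0 on recovered reads, a replicate block, only the 6 libraries compared, and each library left out. The main gene fit and the main pair fit were tested on simulated data, and the alternatives were not.

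Members and gene lists were chosen with earlier results of these data known. Named members are the 10 largest non-overlapping rises and falls of each comparison, up to 10 called differences from the sense gene per comparison, the 10 highest by level and 5 per kb, those with a published role and those opposite listed stress, ERK and transcription genes. Exon lengths came from GENCODE 44. The limit of 10 kb past a gene end and its alternatives were chosen after seeing the data. RefSeq start windows were not matched for 109 members. A few items are not reported here.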

Additional observations from a re-analysis of the deposited data

How the results depend on the processing

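No named call changed direction under any alternative run, while 72 named values not past the threshold took the opposite sign under at least 1 alternative, 151 times in all and past the threshold in none. Of 113 named calls, 81 held under all of them, and of 6407 alternative values 154 fell below the threshold and 56 passed it. Members called numbered 75 and 93 with edgeR and 55 and 72 with DESeq2, for VHL-r and R4VPL3-1 against DMSO, and 55 to 78 and 67 to 95 with 1 library left out. Pair differences called fell to 7 and 18 with no filter, and ranged from 28 to 50 and from 35 to 60 with 1 library left out, and the cause was not tested. For R4VPL3-1 against VHL-r, members called numbered 1 with no filter, 4 with only the 6 libraries compared and 1 to 4 with 1 library left out (1 without R4VPL3-1 replicate 1 or 2 or VHL-r replicate 2, and 4 without DMSO replicate 1 or R4VPL3-1 replicate 3). Pair differences there numbered 2 with a pseudocount of 5 or a mean of at least 50, 0 with no filter or only 6 libraries, and 0 to 1 with 1 library left out. Within 10 kb past a gene end, the share called higher was 42.3% with VHL-r and 50% with R4VPL3-1 at a mean of at least 50. Over all alternatives these shares were 19.1% to 42.3% and 27% to 50%, against 3.69% to 7.26% and 5.90% to 13.4% elsewhere.

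Replicate numbers were shared between treatments. Each gene's treatment mean was first subtracted from its log2 values, and the deviations that remained were correlated between libraries. These correlations were -0.01 to 0.12 for same-numbered libraries of different treatments, and -0.15 to 0.10 for differently numbered ones. The main fit did not pair libraries by number, and these values do not settle whether they were paired. With the replicate block, members called numbered 84, 102 and 5 in the 3 comparisons, and pair differences 40, 54 and 2.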
